A study of Cavia porcellus with 34 samples.

Results

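Heat shock proteins and molecular chaperones were examined as 1 group of genes in the paraventricular nucleus (PVN) of the hypothalamus of juvenile female guinea pigs. Members were taken by gene symbol: every symbol that begins with HSP or DNAJ, the CCT chaperonin subunits CCT2, CCT3, CCT4, CCT5, CCT6A, CCT7 and CCT8, and the BAG cochaperones BAG1 to BAG6. HSPG2, which encodes the matrix protein perlecan, was left out. In all, 68 of 12590 gene symbols were members, with 67 of 12114 in the F1 table, 68 of 12207 in F2 and 66 of 12068 in F3, and 65 were in all 3 tables. HSPB7 was in the F2 and F3 tables, and DNAJC9 and DNAJC19 in those of F1 and F2. HSPA8, HSPA1A, HSPA1B, HSPA1L, HSPA2, HSPE1, TCP1 and DNAJB6 were not analysed here. Every member in a table had a mean of at least 10 and was tested.

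Chaperones bind unfolded or partly folded proteins and help them fold, refold or be cleared. HSP70 proteins work in cycles of ATP use that J-domain proteins (the DNAJ genes) start and nucleotide exchange factors such as the BAG and HSP110 proteins end. HSP90 completes the folding of steroid receptors, the glucocorticoid receptor among them, the CCT ring folds actin and tubulin, and small heat shock proteins hold unfolded proteins without using ATP.

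Pregnant F0 guinea pigs of the study were given saline vehicle (Veh) or the synthetic glucocorticoid (sGC) betamethasone. F1 females were exposed in utero. F2 and F3 females are of the paternal line, which starts from exposed F1 males and not from the F1 females measured here. The question was whether expression in the PVN differs between Veh and sGC in each generation. RNA came from punches of the anteromedial hypothalamus taken on postnatal day 40, with 5 animals per group in F1, 5 per group in F2 and 6 per group in F3, and the punches may hold neighbouring regions.

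The values of all genes summed to between 15573233 and 21935501 per animal in F1, between 15645962 and 19435104 in F2 and between 18692048 and 18977539 in F3. The 6 PVN genes on the marker list (AVP, OXT, CRH, TRH, SIM1 and OTP) were above 0 in every animal. In F1 their sum was 20619, 30689 and 44930 in sGC animals SGM4, SGM8 and SGM20, below the other F1 animals (91185 to 208706), so the main F1 results are also given without these 3. Those fits keep only 2 sGC animals (SGM12 and SGM16) against 5 Veh, and a call can be lost through the smaller group alone. In F2 the sum was 57323 to 96811 in Veh and 77048 to 170654 in sGC, where 4 of 5 animals were above every Veh animal. In F3, the second sequencing batch held sGC animals SGM21 and SGM22, which are not the F2 animals of the same numbers, and repeats of Veh animals SGM5 and SGM9. The repeats were not used here, so all values used from that batch are of sGC animals. In whole tissue, fewer cells of a type and less RNA per cell cannot be told apart.

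There was no effect of sGC on any member in F1, F2 or F3 that passed an adjusted p of 0.05 on the deposited scale (limma, Benjamini-Hochberg over all genes tested). Over all genes, 0.657% passed in F1, 0% in F2 and 0.0506% in F3. At an unadjusted p under 0.05 there was 1 member in F1 (HSPB8, higher in sGC), 5 in F2 (2 higher and 3 lower) and 10 in F3 (3 higher and 7 lower). These are 1.49%, 7.35% and 15.2% of members, beside 13.6%, 11.7% and 13.1% of all genes. The median log2 fold change of the members was -0.05 in F1, 0.01 in F2 and -0.00 in F3 relative to the median of all genes.

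The F1 result depended on scale. Dividing each animal by a median-of-ratios size factor (the size-factor scale) took out differences in total between animals, and the standard errors of the CCT genes in F1 went from 0.12 to 0.13 on the deposited scale to 0.04 to 0.07 (log2). On that scale 16 of 67 members passed (23.9%), 15 lower and 1 higher in sGC, against 17.3% of all genes (8.86% lower). The 15 were CCT2, CCT4, CCT5, CCT8, DNAJA1, DNAJA2, DNAJB9, DNAJB11, DNAJC2, DNAJC7, DNAJC9, HSPB11, HSPH1, HSPBP1 and BAG5, and the higher gene was DNAJC13. Without any threshold, 44 members were lower and 23 higher, where 49.3% of all genes were lower. At an unadjusted p under 0.05 there were 25 members, against 33% of all genes. Without 1 animal the count of members fell, and so did that of all genes. It was 9 without Veh animal SGM3 (13.4% of members, 11.8% of all genes), 8 without SGM7 (11.9% and 12.3%), 5 without SGM11 (7.46% and 7.61%) and 8 without SGM19 (11.9% and 12.4%). It was 6 without sGC animal SGM4 (8.96% and 12.6%), 10 without SGM8 (14.9% and 16%) and 8 without SGM16 (11.9% and 13.7%). It was 12 without Veh animal SGM15 (17.9% and 16%), 13 without sGC animal SGM12 (19.4% and 17%) and 11 without SGM20 (16.4% and 13.2%). The share of members was thus above that of all genes in 4 of 10 fits and below it in 6. CCT2, CCT4, CCT5, DNAJC2 and DNAJC9 passed in all 10 fits that each left out 1 animal. The share of all genes that passed in all 10 is not given, so this count is not set against it. The same holds for the counts of fits given below for single genes. Without SGM4, SGM8 and SGM20 together, which leaves 2 sGC animals, 4 members passed (DNAJC2, DNAJC9 and HSPB11 lower, DNAJC13 higher). These are 5.97% of members, against 8.72% of all genes. In F2 and F3, 0 members passed on the size-factor scale by limma, with 6 and 10 at an unadjusted p under 0.05 (12.8% and 13.2% of all genes).

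**Figure D1:**
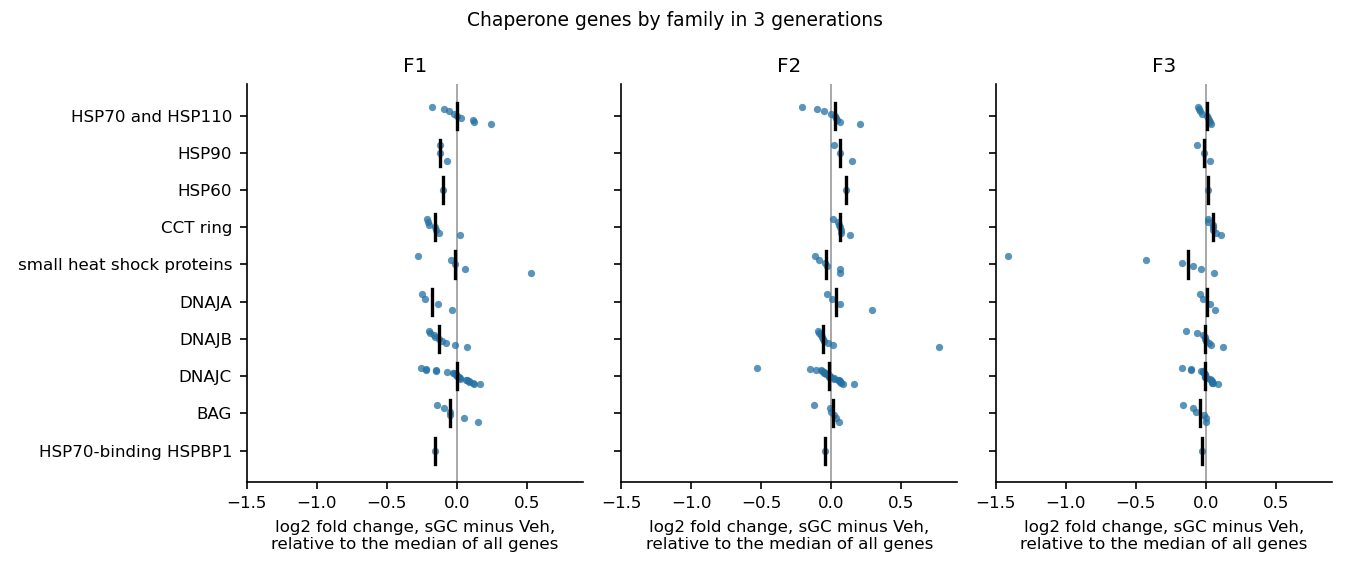
Log2 fold change (sGC minus Veh, deposited scale) of each member relative to the median of all genes, by family and generation; each point is 1 gene and the black bar is the family median. The CCT ring lies at a median of -0.16 in F1, 0.06 in F2 and 0.05 in F3, and HSPB7 and HSPB8 are the lowest points in F3. HSPB11 is placed with the small heat shock proteins by its symbol only.

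HSP90AA1, the stress-inducible cytosolic HSP90, had means of 50461 ± 8787 (SD, n = 5) in Veh and 48068 ± 3492 in sGC in F1, 41113 ± 2380 and 43278 ± 4462 in F2, and in F3 60592 ± 1603 and 59933 ± 1155 (n = 6). HSP90AB1, the constitutive form, had 35353 ± 6085 and 33757 ± 2692 in F1, 32765 ± 1638 and 31576 ± 2866 in F2, and in F3 37958 ± 1281 and 38731 ± 1056. Differences between groups were smaller than the SD of at least 1 group in each case, and values are not per length, so genes are not ranked by level. On the size-factor scale HSP90AA1 in F2 was 39499, 40356, 40950, 39990 and 39247 in Veh, and 44374, 44230, 46827, 42363 and 43290 in sGC. The groups did not overlap, the log2 fold change was 0.14 ± 0.06 (SE), and the adjusted p was 0.334 (limma). In F2, HSP90AA1, HSPA4L, DNAJA4 and all 7 CCT genes had log2 fold changes above the all-gene median, as did the 6 PVN genes, whose part in these values was not tested. Over all genes, groups did not overlap in 3.21% on this scale in F2, and among members in 5 of 68 (DNAJA4, DNAJB2, DNAJC7, DNAJC24 and HSP90AA1). HSP90B1, the HSP90 of the endoplasmic reticulum, had log2 fold changes of -0.00, -0.01 and -0.06 in F1, F2 and F3.

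The 9 HSP70 and HSP110 genes had a median relative log2 fold change of -0.00 in F1, 0.02 in F2 and 0.01 in F3. HSPA5, the HSP70 of the endoplasmic reticulum (BiP), had 11940 ± 2794 in Veh and 11510 ± 983 in sGC in F1, 10770 ± 878 and 10392 ± 824 in F2, and in F3 14043 ± 674 and 14381 ± 641. HSPA9, the mitochondrial HSP70, had log2 fold changes between -0.03 and 0.01, and HSPD1, the mitochondrial chaperonin HSP60, between -0.03 and 0.03. The HSP110 gene HSPA4 had 0.04 ± 0.13 (SE) in F1, -0.04 ± 0.08 in F2 and 0.01 ± 0.02 in F3. HSPH1, another HSP110, had -0.11, -0.08 and -0.05, and in F1 it passed on the size-factor scale (-0.18, adjusted p = 0.0395, limma), though in only 2 of 10 fits without 1 animal. HSPA4L, a close relative of HSPA4, in F2 read 4229, 4398, 4494, 4813 and 4642 in Veh and 5150, 5184, 5677, 4761 and 5185 in sGC on the size-factor scale. One sGC animal, SGM24 at 4761, lay below the highest Veh animal, and the log2 fold change was 0.20 ± 0.05 with an adjusted p of 0.16 (limma). HSPA12B, an atypical HSP70 found in endothelium, read 203, 224, 186, 141 and 194 in F1 Veh and 330, 292, 154, 216 and 212 in sGC (deposited scale). The groups overlapped, and the log2 fold change of 0.31 (adjusted p = 0.51, limma) was -0.039 without SGM4, SGM8 and SGM20. The 5 endothelial markers summed to 6010 to 8679 in F1 Veh and 7098 to 12350 in sGC, and their part in the HSPA12B values was not tested.

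The CCT subunits had nearly all one direction within a generation. In F1, 6 of 7 subunits lay below the median of all genes, and in F2 and F3 all 7 lay above it. CCT5 in F1 read 5008, 4964, 4810, 4654 and 4608 in Veh and 4090, 4045, 4479, 4266 and 4081 in sGC on the size-factor scale. Every sGC animal was below every Veh animal, with a log2 fold change of -0.20 ± 0.04 (adjusted p = 0.00909, limma). CCT4 read 4485, 4669, 4521, 4157 and 4618 in Veh and 3744, 3643, 4086, 3974 and 3967 in sGC, also without overlap (-0.21 ± 0.04, adjusted p = 0.0105). CCT2 passed as well (-0.20, adjusted p = 0.0111). CCT8 passed with all animals (-0.15, adjusted p = 0.044) but in only 1 of 10 fits without 1 animal. CCT3 and CCT6A did not (-0.14 and -0.13, adjusted p of 0.079 and 0.118), and CCT7 was the exception at 0.03. Groups did not overlap in F1 for 10 of 67 members on this scale, against 14.2% of all genes. On the deposited scale the same 7 genes had log2 fold changes from -0.15 to 0.09 in F1 and none passed.

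Averaged over the 7 subunits, the log2 level relative to the Veh mean was 0.04, 0.08, 0.00, -0.07 and -0.05 in the F1 Veh animals and -0.15, -0.23, -0.09, -0.11 and -0.13 in sGC. All 5 sGC animals were below all 5 Veh animals, and SGM8 was the lowest. Without SGM4, SGM8 and SGM20, with 2 sGC animals left, 0 CCT genes passed by limma (8.72% of all genes), and the family median was -0.13 relative to all genes. CCT2, CCT4 and CCT5 then had log2 fold changes of -0.17, -0.16 and -0.14 (adjusted p of 0.118, 0.0967 and 0.117, limma). In F1 sGC all 6 PVN genes were below the median of all genes and all 7 oligodendrocyte genes above it (summed 39559 to 109527, Veh 40709 to 51313), and their part in the CCT values was not tested. In F2 the average was 0.01, -0.03, 0.01, -0.04 and 0.05 in Veh and 0.15, 0.08, -0.01, 0.06 and 0.02 in sGC, and the groups overlapped. In F3 it ran from -0.05 to 0.02 in Veh and from 0.01 to 0.08 in sGC, with overlap. In F2 sGC all 6 PVN genes were above the median of all genes (median log2 fold change 0.36, with 4 of 6 at an unadjusted p under 0.05 and 0 after adjustment, limma) and all 8 oligodendrocyte genes below it (median -0.84). In F3, 2 of 6 PVN genes and all 7 oligodendrocyte genes were above it (medians -0.03 and 0.09). Their part in the F2 and F3 CCT values was not tested. CCT7 in F3 read 4893 at the lowest, 5326 at the median and 5832 at the highest in Veh, and 5541, 5741 and 6038 in sGC. The log2 fold change was 0.11 ± 0.04 (unadjusted p = 0.0124, adjusted p = 0.25, limma), and 0.12 with the first sequencing batch alone. CCT4 in F3 had 0.07 (adjusted p = 0.271).

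**Figure D2:**
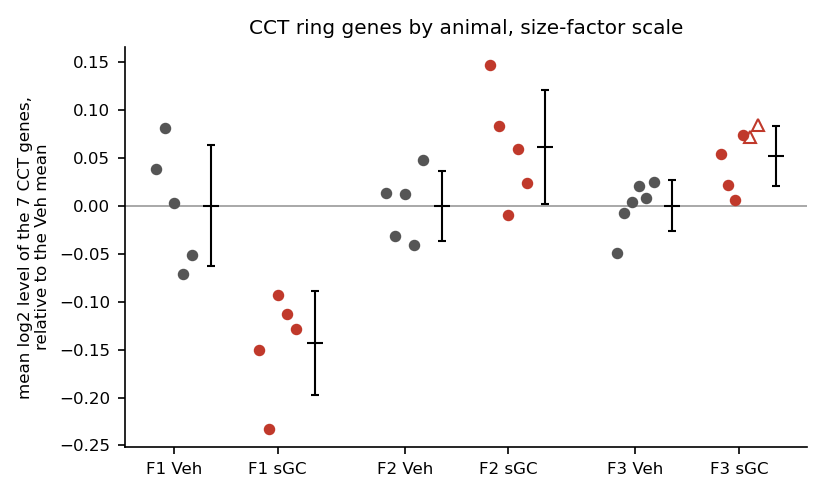
Mean log2 level of the 7 CCT genes in each animal relative to the Veh mean of its generation, size-factor scale; grey, Veh; red, sGC; open triangles, second F3 sequencing batch; the bar beside each group is the mean ± SD. The 5 F1 sGC animals lie from -0.23 to -0.09, below all F1 Veh animals, while F2 and F3 groups overlap.

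The prefoldin genes, which encode the complex that hands actin and tubulin to CCT, were a second list (4 of 5 in the tables). In F1 all 4 were lower in sGC on the size-factor scale, with log2 fold changes from -0.39 to -0.22, and all 4 passed, where 8.86% of all genes passed as lower. Of the 4, 2 passed without SGM4, SGM8 and SGM20 (8.72% of all genes in either direction). On the deposited scale 0 of 4 passed, and 3 had an unadjusted p under 0.05 (limma, 13.6% of all genes). In F2 and F3, 0 of 4 passed on either scale, with median relative changes of -0.08 and 0.08.

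Type A J-domain genes encode the general partners of HSP70. DNAJA1 in F1 had -0.16 ± 0.12 on the deposited scale and -0.22 ± 0.06 on the size-factor scale (adjusted p = 0.026, limma). That call held in 6 of 10 fits without 1 animal. Without SGM4, SGM8 and SGM20 the value was -0.17 ± 0.05 and did not pass (adjusted p = 0.0576). DNAJA4 in F2 read 1901, 1864, 1826, 1732 and 1709 in Veh and 2056.5, 2101, 2230, 2335 and 2288 in sGC on the size-factor scale. The groups did not overlap, and the log2 fold change of 0.29 ± 0.05 had an adjusted p of 0.0597 (0.21 and 0.265 on the deposited scale, limma). In F1 DNAJA4 was -0.19 and in F3 0.06 on the deposited scale. The F1 value was -0.25 on the size-factor scale and turned to 0.07 without SGM4, SGM8 and SGM20.

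Type B J-domain genes include DNAJB1, a heat-inducible partner of HSP70, DNAJB9 and DNAJB11, which act in the endoplasmic reticulum, and DNAJB2, a neuronal form. DNAJB1 had log2 fold changes of -0.06 in F1, -0.10 in F2 and -0.15 in F3 (unadjusted p = 0.0455, adjusted p = 0.372, limma). DNAJB2 in F2 read 3509, 3206, 3534, 3226 and 3569 in Veh and 3265, 3042, 3258, 2772 and 2892 in sGC. The ranges overlapped on this deposited scale, with -0.16 ± 0.07 and an adjusted p of 0.394, and not on the size-factor scale (-0.09, adjusted p = 0.298). DNAJB5 in F2 read 745, 706, 783, 781 and 753 in Veh and 659, 650, 687, 627 and 717 in sGC. Only SGM25 at 717 lay within the Veh range, and the log2 fold change was -0.17 ± 0.07 (adjusted p = 0.368). DNAJB11 in F3 read 978, 1146.5 and 1191 (lowest, median, highest) in Veh and 1190, 1216 and 1272 in sGC. The groups overlapped by 1 unit, with 0.12 ± 0.04 and an adjusted p of 0.238. In F1 DNAJB11 was lower on the size-factor scale (-0.20, adjusted p = 0.0395, limma), passing in 3 of 10 fits without 1 animal. Without SGM4, SGM8 and SGM20 it was -0.24 and did not pass (adjusted p = 0.0651).

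DNAJB13 encodes a protein of the ciliary axoneme. In F2 it read 390, 271, 240, 120 and 212 in Veh and 295, 373, 545, 307 and 393 in sGC. The groups overlapped through Veh animal SGM22 at 390, and the log2 fold change was 0.69 ± 0.26 (unadjusted p = 0.0181, adjusted p = 0.336, limma). Of the ependymal markers, RSPH1, a radial spoke gene, read 893 in SGM22 and 97 in SGM28, the Veh animals in which DNAJB13 was highest and lowest (390 and 120), and 1078 in SGM30, the sGC animal in which DNAJB13 was highest. CCDC153 was likewise highest in SGM22 and SGM30 (246 and 276) and lowest in SGM28 (93). All 5 ependymal markers were above the median of all genes in F2 sGC (summed 5513 to 8655, Veh 5145 to 6728), none was at 0, and their part in the DNAJB13 values was not tested. In F1 and F3 the DNAJB13 log2 fold change was -0.09 and 0.02.

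**Figure D3:**
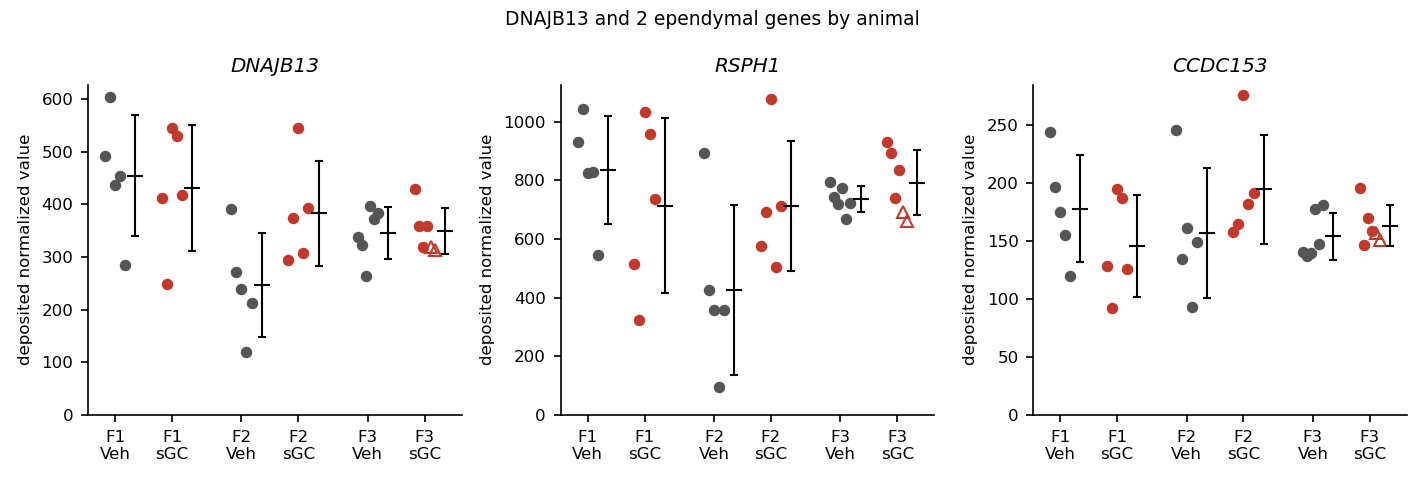
Deposited normalized values of DNAJB13 and the ependymal genes RSPH1 and CCDC153 in each animal by generation and group; grey, Veh; red, sGC; open triangles, second F3 sequencing batch; the bar beside each group is the mean ± SD. In F2 the Veh animal at 120 for DNAJB13 is the lowest for RSPH1 (97) and CCDC153 (93) too.

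Type C J-domain genes are the most varied, with roles from synaptic vesicles (DNAJC5, DNAJC6) to the ribosome (DNAJC2). DNAJC5 had 11285 ± 1475 in Veh and 11601 ± 981 in sGC in F1, 11771 ± 1106 and 11064 ± 1185 in F2, and in F3 12248 ± 296 and 12142 ± 260. None of these pairs differed by more than the SD of at least 1 group. DNAJC2 in F1 read 839, 876, 874, 877 and 893 in Veh and 764, 707, 764, 735 and 778 in sGC on the size-factor scale. The groups did not overlap (-0.22 ± 0.04, adjusted p = 0.00681, limma), and without SGM4, SGM8 and SGM20 the value was -0.22 (adjusted p = 0.0344). DNAJC9, a histone chaperone, read 803, 791, 813, 820 and 836 in F1 Veh and 681, 717, 611, 729 and 671 in sGC. Again there was no overlap, with -0.26 ± 0.05 (adjusted p = 0.00938) and -0.29 (adjusted p = 0.0416) without those 3 animals. In F2 DNAJC9 was at -0.11 on the same scale (adjusted p = 0.594).

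DNAJC13, an endosomal protein, read 947, 1143, 913, 852 and 807 in F1 Veh and 1134, 1155, 1128, 1169 and 872 in sGC on the deposited scale. SGM20 at 872 lay apart from the other sGC animals, and SGM20, SGM4 (1134) and SGM12 (1128) were inside the Veh range. The log2 fold change was 0.23 ± 0.13 (adjusted p = 0.45) on that scale. On the size-factor scale it was 0.17 ± 0.05 (adjusted p = 0.0356, limma) and passed in 2 of 10 fits without 1 animal. In F3 it read 792, 868 and 930 (lowest, median, highest) in Veh and 760, 807 and 828 in sGC. The groups overlapped, and the log2 fold change was -0.11 ± 0.04 (adjusted p = 0.238). HSPB11, which carries an HSPB symbol but encodes a part of the intraflagellar transport machinery, read 543, 559, 490, 432 and 461 in F1 Veh and 409, 519, 396, 410 and 410 in sGC. All sGC animals other than SGM8 were below every Veh animal, with -0.21 ± 0.13 (adjusted p = 0.512) on the deposited scale and -0.28 ± 0.08 (adjusted p = 0.0343) on the size-factor scale, where it passed in 3 of 10 such fits.

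DNAJC7, a J-domain protein with TPR repeats that acts between HSP70 and HSP90, had the smallest unadjusted p of the F2 members on the deposited scale. It read 12591, 15696, 11690, 9476 and 12426 in Veh and 8521, 7901, 9674, 6688 and 7714 in sGC. SGM30 at 9674 was above the lowest Veh animal (SGM28, 9476), and the log2 fold change was -0.60 ± 0.13 (unadjusted p = 0.000345, adjusted p = 0.0645, limma). Without SGM28 it was -0.69 and passed (adjusted p = 0.0167). In F1 it read 1696, 2100, 1675, 1478 and 1551 in Veh and 1533, 1667, 1677, 1671 and 1428 in sGC, below every F2 animal and every F3 animal (7573 to 10839).

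CNP, a myelin gene of oligodendrocytes, lies next to DNAJC7 in the RefSeq gene table of assembly mCavPor4.1, and the library kit does not mark strand. In F2 the value of DNAJC7 minus that of CNP was 964 to 1599 in Veh and 891 to 1325 in sGC, and in F3 it was 837 to 1078 and 840 to 1164. In F1 DNAJC7 was below CNP in every animal, with differences from -7556 to -2650. In F2 the log2 of this difference was 10.28 in Veh and 10.19 in sGC, a change of -0.09 (two-sided exact permutation test, p = 0.603, n = 5 per group). All 8 oligodendrocyte markers were lower in F2 sGC at an unadjusted p under 0.05, with sums of 70157 to 113224 against 133173 to 241282 in Veh, and none was at 0. CNP itself had a log2 fold change of -0.67 (adjusted p = 0.0622, limma). Reads of DNAJC7 and CNP may not be separable in the F2 and F3 tables, so the F2 value of DNAJC7 is uncertain, and the part of oligodendrocyte RNA in it was not tested.

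**Figure D4:**
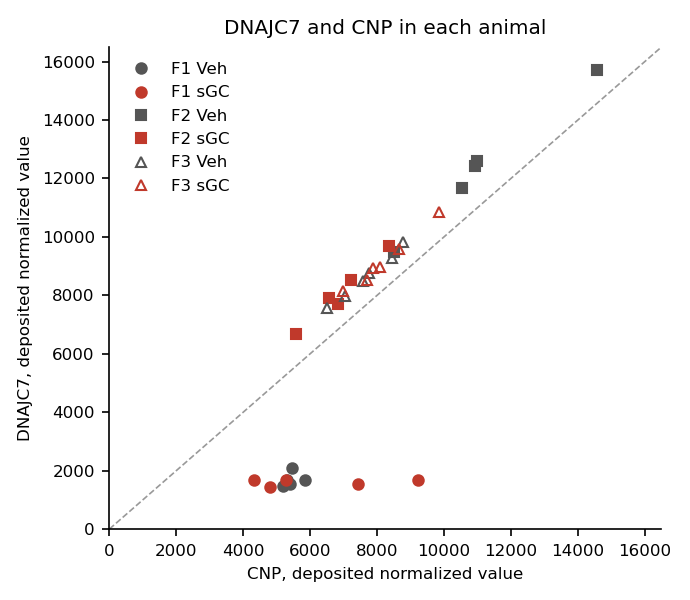
Deposited normalized values of DNAJC7 against its neighbour CNP, 1 point per animal; circles, F1; squares, F2; open triangles, F3; grey, Veh; red, sGC; the dashed line marks equal values. F2 and F3 animals lie in a band 837 to 1599 above the line, and F1 animals lie below it at a DNAJC7 level of 1428 to 2100.

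BAG3 joins HSP70 to small heat shock proteins and directs their clients to autophagy, and HSPB8 is its main small heat shock protein partner. BAG3 in F3 read 554, 606.5 and 620 (lowest, median, highest) in Veh and 518, 533.5 and 545 in sGC. The groups did not overlap, and the log2 fold change was -0.17 ± 0.03 (unadjusted p = 0.000202, adjusted p = 0.0768, limma). Both second-batch animals (528 and 539) lay within the range of the other sGC animals, and the first batch alone gave -0.17 (adjusted p = 0.242). In the 12 fits that each left out 1 animal, the adjusted p ran from 0.0538 to 0.188. Groups did not overlap for 2 of 66 members in F3 (BAG3 and HSPB6) and for 1.21% of all genes. In F1 BAG3 read 539, 576, 459, 385 and 393 in Veh and 604, 559, 459, 535 and 557 in sGC. The groups overlapped, the log2 fold change was 0.22 ± 0.14 (adjusted p = 0.532), and in F2 it was -0.02. On leaving out SGM4, SGM8 and SGM20 the F1 value was 0.094 (adjusted p = 0.986), and -0.0055 on the size-factor scale. BAG1, which acts at the proteasome, had -0.09 ± 0.03 in F3 (unadjusted p = 0.013, adjusted p = 0.253).

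HSPB8 in F1 read 144, 202, 113, 93 and 79 in Veh and 183, 256, 126, 150 and 220 in sGC. The groups overlapped, and the log2 fold change was 0.60 ± 0.23 (unadjusted p = 0.0155, adjusted p = 0.234, limma). Without SGM4, SGM8 and SGM20 it was 0.20 (adjusted p = 0.936). All 5 vascular smooth muscle and pericyte genes in the F1 table were above the median of all genes in sGC, summing to 4935 to 14205 against 3723 to 5444 in Veh, and their part in the HSPB8 values was not tested. In F3 HSPB8 read 125, 174 and 223 in Veh and 77, 132.5 and 161 in sGC, with overlap, -0.43 ± 0.17 and an adjusted p of 0.306. The second-batch animals read 77 and 116, and the first batch alone gave -0.23 (unadjusted p = 0.135). In F2 it was -0.01, with Veh animal SGM22 at 310 and the other Veh animals from 77 to 185.

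HSPB7, a small heat shock protein of heart and muscle, was low in these punches. In F3 it read 20, 25.5 and 38 in Veh and 2, 12 and 25 in sGC. The lowest were the second-batch animals at 2 and 5, the groups overlapped at 20 to 25, and the log2 fold change was -1.41 ± 0.43 (unadjusted p = 0.00507, adjusted p = 0.199, limma). With the first batch alone, where sGC ran from 11 to 25, it was -0.74 (adjusted p = 0.379). In F2 HSPB7 ran from 8 to 17 in Veh and from 6 to 20 in sGC. HSPB6, which is abundant in muscle, read 264, 269.5 and 288 in F3 Veh and 249, 258 and 263 in sGC. These ranges did not overlap, with -0.09 ± 0.04 and an adjusted p of 0.322. HSPB1 (HSP27) had -0.03 in F3, and HSPB2 had -0.17. Of the 6 genes with an HSPB symbol, 5 thus lay below the median of all genes in F3. The other was HSPB11, which is grouped with the small heat shock proteins here only by its symbol.

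**Figure D5:**
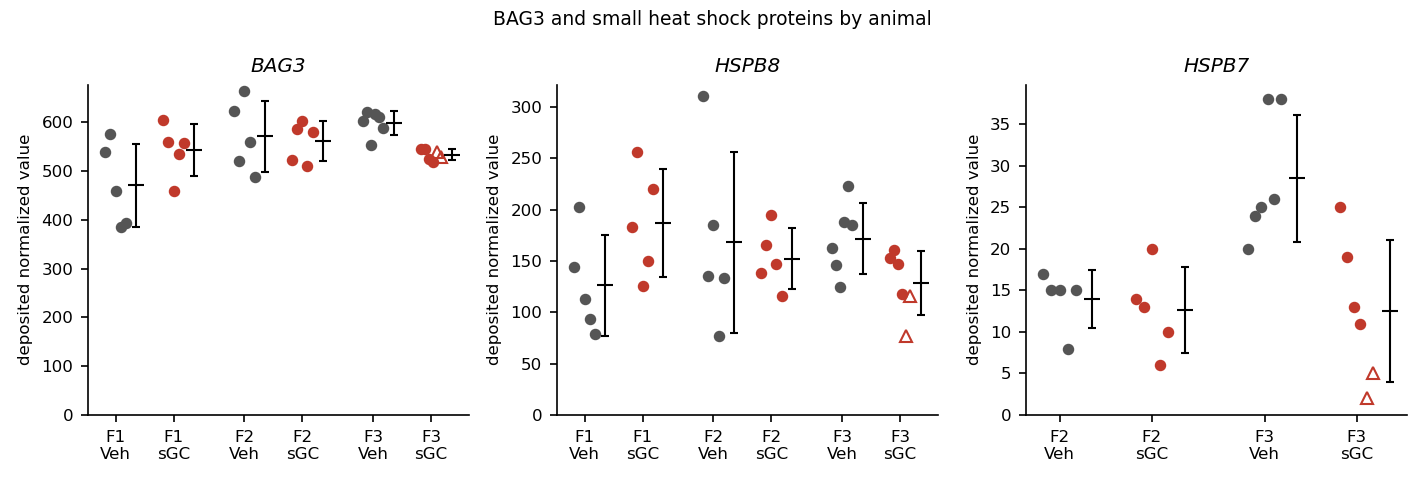
Deposited normalized values of BAG3, HSPB8 and HSPB7 in each animal by generation and group; grey, Veh; red, sGC; open triangles, second F3 sequencing batch; the bar beside each group is the mean ± SD. In F3 BAG3 is 518 to 545 in sGC and 554 to 620 in Veh, and the second-batch animals are the lowest for HSPB7 (2 and 5).

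Genes of vascular smooth muscle and pericytes, a list chosen after the values were seen, were also measured because HSPB6, HSPB7 and HSPB8 are muscle-rich. In F3 all 10 were in the table, none was at 0, and they summed to 7072 to 7852 in Veh and 7556 to 8893 in sGC. Of these, 8 lay above the median of all genes and 2 below it, with a median log2 fold change of 0.05. In F3, 4 of the 10 had an unadjusted p under 0.05 and 0 passed after adjustment (limma), where 13.1% of all genes had an unadjusted p under 0.05. Those 4 were higher in sGC, among them ACTA2 (121 ± 22.2 and 182 ± 21.5) and MYH11 (175 ± 64.2 and 310 ± 69.4). BAG3, HSPB6, HSPB7 and HSPB8 were lower in F3 sGC, none of them past the threshold after adjustment (limma). In F1 all 5 genes of the list in the table were higher in sGC, as was HSPB8. Relative to the median of all genes, HSPB6 was also above it in F1, and HSPB1 (-0.04), HSPB2 (-0.01) and HSPB11 were below it. In F2 all 5 genes of the list were below that median (median log2 fold change -0.22), while HSPB8 was above it (0.06 relative to all genes). In F2, SGM22, the Veh animal highest for HSPB8, read 4675 for TAGLN where the other Veh animals read 404 to 1603, and 1738 for HSPB1 where they read 757 to 1176. The part of these cells in the small heat shock protein values was not tested.

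The sGC effect differed between generations for 1 of 65 members on the deposited scale. DNAJC7 had a log2 fold change 0.52 ± 0.15 greater in F1 than in F2 (adjusted p = 0.0304, limma), where 7.64% of all genes passed. DNAJC7 lay below CNP in F1 and above it in F2, and whether both tables counted its reads alike was not tested, so this difference is uncertain. With all animals, 10 members had an unadjusted p under 0.05 (24.5% of all genes). Without SGM4, SGM8 and SGM20 the DNAJC7 difference was 0.59, with an adjusted p of 0.0671 (limma). It passed in 12 of 20 fits without 1 animal, and not without F1 animals SGM11, SGM15, SGM19 or SGM8, or F2 animals SGM23, SGM29, SGM24 or SGM25 (adjusted p from 0.0056 to 0.0813 over all 20). The count of members was 9 without F1 Veh animal SGM7, 4 without SGM20, 3 without SGM12 or SGM22, 2 without SGM16, and 0 without SGM11, SGM15, SGM8, SGM29, SGM24 or SGM25. The share of all genes that passed is not given for these fits, so these counts are not set against it. Between F1 and F3, 0 of 65 members passed and 5 had an unadjusted p under 0.05, against 3.13% and 18.1% of all genes. BAG3 was the nearest (0.39 ± 0.13, adjusted p = 0.0883), and it passed without SGM3, SGM7 or SGM12. Between F2 and F3, 0 of 65 members passed and 3 had an unadjusted p under 0.05, against 0.00875% and 9.2% of all genes, and DNAJC7 was the nearest (-0.69, adjusted p = 0.0869). It passed without F2 animals SGM28 or SGM30.

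On the size-factor scale the difference passed for 13 of 65 members between F1 and F2 and for 14 between F1 and F3, against 14.3% and 17.6% of all genes. In both, 6 of the 7 CCT genes passed (all but CCT7), each with a lower log2 fold change in F1. The marker genes differed between generations too, with a median log2 fold change of the PVN genes of -1.06 in F1 and 0.36 in F2 and of the oligodendrocyte genes of 0.27 and -0.84 (deposited scale), and their part in the differences of the CCT genes was not tested. For CCT4 the difference was -0.27 ± 0.05 from F2 (adjusted p = 0.00184) and -0.28 ± 0.05 from F3 (adjusted p = 0.000294, limma). Leaving out 1 animal left 5 or 6 CCT genes past the threshold in each contrast. The share of all genes is not given for those fits. Leaving out SGM4, SGM8 and SGM20 keeps 2 F1 sGC animals and leaves the F2 animals as they were. Then 3 members passed between F1 and F2 (CCT4, DNAJA1 and HSPB11), against 3.36% of all genes, and 7 between F1 and F3, against 10.9%. The 7 were CCT2, CCT4, DNAJB11, DNAJC2, DNAJC13, DNAJC16 and HSPB11. HSP90AA1 (-0.26), HSPD1 (-0.20), DNAJA1 (-0.29), DNAJA4 (-0.53) and DNAJB13 (-0.92) passed between F1 and F2, and BAG3 (0.32), HSPB8 (0.96) and DNAJC13 (0.28) between F1 and F3. Of these, DNAJA1 and DNAJC13 also passed without those 3 animals, and HSP90AA1, HSPD1, DNAJA4, DNAJB13, BAG3 and HSPB8 did not. Between F2 and F3, 1 member (DNAJC7) passed, against 0.158% of all genes. The contrasts with F1 share the F1 animals, and 1 spread was fitted for all generations although the F3 values vary less.

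HSF1, the transcription factor that induces many of these genes in heat shock, had 1196 ± 81.9 in Veh and 1416 ± 356 in sGC in F1, 1265 ± 103 and 1210 ± 115 in F2, and in F3 683 ± 33.5 and 665 ± 42.1. In F1 sGC it read 1950 in SGM8 and 1618 in SGM20, while the other sGC animals (1149 to 1188) were within the Veh range of 1114 to 1286. The adjusted p was 0.563, 0.765 and 0.768 (limma). Over all the lists of chaperone partners and stress factors (HSP90 and HSP70 cochaperones, prefoldin, nucleotide exchange factors, the unfolded protein response, endoplasmic reticulum folding, mitochondrial proteases and heat shock factors), 0 of 49 genes passed in F1, 0 of 51 in F2 and 0 of 50 in F3 on the deposited scale. At an unadjusted p under 0.05 there were 4, 1 and 4, or 8.16%, 1.96% and 8% of the lists, against 13.6%, 11.7% and 13.1% of all genes. On the size-factor scale 15 of 49 passed in F1 (30.6%), 13 lower and 2 higher, beside 17.3% of all genes, and 0 in F2 and F3. The F1 count was 4 of 49 without SGM4, SGM8 and SGM20, all lower (8.16%, against 8.72% of all genes).

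Levels between tables can be set side by side only loosely, since each table was normalized apart. On the size-factor scale, the highest Veh mean of a member was over 3 times the lowest for 4 of 65 members (6.15%), against 4.19% of all genes with a mean of at least 50. BAG2, which inhibits the ubiquitin ligase CHIP, was at 1318 in F1, 207 in F2 and 148 in F3. BAG2 minus RAB23, its neighbour in the RefSeq table, was -331 to -123 in F1, -1311 to -1031 in F2 and -1149 to -1010 in F3. Whether BAG2 and DNAJC7 were counted alike in the tables was not tested, so their levels are not read as expression. DNAJC17 was at 77.3, 256 and 219, HSPB2 at 56.8, 171 and 63.9, and the other was DNAJC7. The median ratio was 1.19 for members and 1.25 for all genes, and 11 of 65 members (16.9%) exceeded 1.5, against 24.3% of all genes.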

How the data were processed

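RNA-seq of PVN punches (TruSeq V2) was processed by the authors with alignment to cavPor3, counting with GenomicAlignments, ComBat between the F3 batches and normalization by residuals with RUVSeq; their processing notes also name TopHat2. How reads that fit several similar genes were counted is not given in the sources used here. The deposited values are rounded normalized counts, here a score rather than raw reads, and no count model was used. The deposited tables also hold the authors' own fold changes and p-values, which were not used. Of 34 samples, 32 had a column, and 2 technical repeats were not used here. The methods state only an approximate read depth, and the depth behind each value was not recovered.

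Values were taken as log2(value + 1), and genes whose mean was 10 or more were fitted, separately for F1, F2 and F3, by lmFit and trended eBayes (limma 3.58.1, R 4.3.3). P-values were adjusted by Benjamini-Hochberg, calls were made at 0.05, and the procedure was tested on simulated data. Fold changes are sGC minus Veh on that log2 scale, which understates changes of low genes. A joint fit with 6 group means tested differences between generations. Residual normalization had removed 1 direction in F1, 1 in F2 and 2 in F3, which can make p-values too small, so fits with these as covariates were alternatives, beside other scalings, pseudocounts, filters, and each animal left out. The study counts litters as its independent N, and p-values measure the spread between these animals.

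Named were fixed canonical members (levels), the 5 smallest p per generation, any member passing a test, and the 4 smallest p on the size-factor scale; others were named after their values were seen. Members, lists and tests were chosen with earlier results of these data known. Symbols of 67 of 68 members matched the RefSeq table, which is of another build, so no coordinates are given. No sequence is printed.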

Additional observations from a re-analysis of the deposited data

Results flagged for a closer look

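In 48 groups of 5 or 6 animals examined for a value far from the rest, 3 stood apart, where chance gives about 2.4. DNAJC13 in F1 sGC was 9.77 on the log2 scale in SGM20, against 10.14 to 10.19 in the other sGC animals. HSPB11 in F1 sGC was 9.02 in SGM8, against 8.63 to 8.68. DNAJB11 in F3 Veh was 9.94 in SGM13, against 10.14 to 10.22. SGM8 and SGM20 were also among the F1 sGC animals with low PVN genes. The effect of sGC on DNAJC7 differed between F1 and F2, by 0.52 on the log2 scale (adjusted p = 0.0304, limma), and its values in F2 moved with those of CNP. DNAJC7 was below CNP only in F1, and whether the tables counted its reads alike was not tested, so the difference is uncertain.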

How the results depend on the processing

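The numbers in the titles do not repeat between Veh and sGC of a generation, and SGM21 and SGM22 of F2 and F3 are different animals; the column names do repeat numbers between Veh and sGC. Same-numbered animals did not deviate together (correlations across genes from -0.24 to 0.31 in F1, -0.41 to 0.22 in F2 and -0.54 to 0.19 in F3), and 1 of 5, 1 of 5 and 0 of 6 correlated best with its own number. A replicate block on these numbers, chosen after seeing the data, left 0 members in each generation, and 2 in F1 with size factors (DNAJC2 and DNAJC9, where 6.5% of all genes passed). The count of F1 members with an adjusted p under 0.05 (0 on the deposited scale, limma) was 16 with size factors, 12 with scaling to the total (17.9%, all genes 16.4%), 17 with quantile normalization (25.4%, all genes 17.6%), and 7 with size factors and the removed directions as covariates, chosen after seeing the data (10.4%, all genes 11.3%). These scalings take out differences in total between F1 animals. In F2 the count was 0 to 1 without 1 animal each, and 0 under every other setting. In F3 it was 0 under every setting run. The count of members whose effect differed between F1 and F2 was 13 with size factors (14.3% of all genes) and 0 to 9 without 1 animal each. Without the 3 F1 animals low in PVN genes it was 0 (2.43% of all genes), and 3 with size factors too (3.36%). It was 14 (17.6%) and 0 to 3 between F1 and F3 (7 with size factors and without those 3, 10.9%), and 1 (0.158%) and 0 to 1 between F2 and F3. The share of all genes is not given for the fits of these differences without 1 animal, so those counts are not set against it. Size factors shift the median of all genes in F1 from 0.07 to 0.00 and in F2 from -0.08 to -0.00. The median of the members relative to all genes ran from -0.07 to -0.03 in F1, -0.01 to 0.02 in F2 and -0.01 to 0.00 in F3 over all settings. The CCT median kept its sign in each generation (-0.19 to -0.12, 0.04 to 0.08 and 0.03 to 0.06). The small heat shock protein median, with HSPB11 counted in by its symbol, changed sign in F1 (-0.10 to 0.04) and F2 (-0.13 to 0.02). It stayed below 0 in F3 (-0.15 to -0.09). Of 449 values of named genes under other settings, 421 kept direction and side of the threshold, 27 newly passed and 1 changed sign: HSPA12B in F1, at -0.039 without the 3 animals low in PVN genes, a setting chosen after seeing the data. These settings start from the deposited scale; on the size-factor scale without those 3, 14 of 67 F1 values changed sign, none of which had passed, among them BAG3 (-0.0055), DNAJA4 (0.067), DNAJB13 (0.18) and DNAJB1 (0.02). With the removed directions as covariates the adjusted p of BAG3 in F3 was 0.309. Pseudocount and filters changed no count of members. Other causes were not tested.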
